A study of Homo sapiens with 12 samples.

Results

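The genes described here are 33 genes of cholesterol and fatty acid synthesis and handling, chosen by name, of the 33704 gene identifiers listed in the deposited tables. There were 24 enzymes of the synthesis routes, 4 genes of the sterol-sensing SREBP system, 2 genes of sterol transport inside the cell, and 3 genes set against them as the opposite side of sterol balance: ABCA1, ABCG1 and MYLIP. A symbol was matched to an identifier for 32 of the 33. ACACA, the acetyl-CoA carboxylase gene, was not matched, and its expression is not analysed here. CYP51A1, the sterol demethylase, was listed with only 1 to 19 reads per library. In GENCODE release 29 another same-strand gene, not among the identifiers of the tables, covers 79.4% of its exon bases. The part of that overlap in the low count was not tested.

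Cholesterol and fatty acids are made from acetyl-CoA by enzymes whose genes share one main switch, the SREBP transcription factors. When sterols in the endoplasmic reticulum are low, SCAP carries SREBP to the Golgi, where it is cut and released to the nucleus; when sterols are high, INSIG proteins hold SCAP back. Oxidised sterols act on the LXR receptors, which raise ABCA1 and ABCG1, the pumps that pass cholesterol out of the cell, and MYLIP, a ubiquitin ligase that lowers lipoprotein uptake. Dividing leukaemia cells need this synthesis for new membrane.

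The study measured poly(A) RNA in 12 libraries of Jurkat cells, a human T-cell acute leukaemia line, in 6 groups of 2. TAL1-control and TAL1-KD were Jurkat cells carrying a doxycycline-inducible shRNA against the transcription factor TAL1, left untreated or given 5 µg/ml doxycycline for 72 h. UTX-control and UTX-KD were the same pair of conditions in cells with an inducible shRNA against UTX, the histone H3K27 demethylase encoded by KDM6A. J4-control and J4-2uM were Jurkat cells given DMSO or 2 µM GSK-J4, an inhibitor of the KDM6 demethylases, for 72 h. Both shRNA lines grew in Tet-free serum with blasticidin and another selection drug, and the GSK-J4 cells in serum not described as Tet-free, without selection drugs. Whether a line was 1 clone or a pool was not given in the sources used here, and no library of doxycycline-treated cells without one of these shRNAs was analysed here. The labels do not say that the 2 replicates of a group were separate cultures, and p-values then measure no more than how these samples vary, possibly for technical reasons.

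Between 55524079 and 82534711 reads per library were counted to genes. The level of a gene is given as CPM (reads of the gene relative to all counted reads of the library), scaled between libraries with edgeR's TMM factors. The T-cell marker CD3D lay between 213 and 665 CPM in all 12 libraries. Of 7 T-cell markers 2 rose in TAL1-KD, 5 rose and 1 fell in UTX-KD, and 1 rose and 5 fell with GSK-J4. Of all genes tested, 26.3% rose and 27.9% fell in TAL1-KD, 25.2% and 25.3% in UTX-KD, and 37.9% and 36.9% with GSK-J4. Markers of other cell types were below 2 CPM except the B-cell gene CD79A (36.5 to 84.9 CPM, beside MS4A1 at no more than 0.347) and the fibroblast gene COL1A1 (3.03 to 9.35 CPM, beside COL1A2 at no more than 0.0179). CD79A rose by 0.51 in UTX-KD and 1.15 with GSK-J4, and KRT8, an epithelial gene at no more than 1.73 CPM, by 1.38 and 1.61. COL1A1 rose by 0.68 and MS4A1 by 1.90 with GSK-J4. The part of these genes in the results below was not tested. The mRNA of neither shRNA target changed past the threshold in the libraries labelled for its knockdown: TAL1 stood at 272 and 276 CPM in TAL1-control and 252 and 278 in TAL1-KD (log2 fold change −0.07, SE 0.09, adjusted p = 0.49), and KDM6A at 30.8 and 31.2 CPM in UTX-control and 29.6 and 29.8 in UTX-KD (−0.08, SE 0.04, adjusted p = 0.103). The groups are therefore named by their labels, and each direction below is that of the libraries labelled so. In the other comparisons TAL1 fell by 0.12 in UTX-KD and by 0.66 with GSK-J4. KDM6B, another KDM6 gene, rose by 0.93 in TAL1-KD and 0.45 in UTX-KD, and both KDM6A and KDM6B rose with GSK-J4. The part of these changes in the results below was not tested. The 2 TAL1-KD-labelled libraries differed more than any other pair: the SD of their log2 difference over genes was 0.226, against 0.0532 to 0.0794 in the other groups.

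Promoter sequence is shown here for 7 genes that carry the contrast reported below: 4 synthesis genes that responded to different degrees, the gene of SREBP-2 itself, and ABCA1 and MYLIP from the opposing side. RefSeq promoters (build GRCh38.p14, 250 bases before to 50 after each start) were matched for 28 of the 33 genes, 36 promoters in all. Each line gives the 250 bases before the start, read 5′ to 3′ on the gene's strand, for the first listed start. Capitals mark CCAAT or its reverse complement ATTGG (the NF-Y box), the SREBP element TCACNCCAC, and the E-box CACGTG. Both strands were searched, and no capitalised match overlaps another.
HMGCS1 (chr5:43313413-43313662, minus strand): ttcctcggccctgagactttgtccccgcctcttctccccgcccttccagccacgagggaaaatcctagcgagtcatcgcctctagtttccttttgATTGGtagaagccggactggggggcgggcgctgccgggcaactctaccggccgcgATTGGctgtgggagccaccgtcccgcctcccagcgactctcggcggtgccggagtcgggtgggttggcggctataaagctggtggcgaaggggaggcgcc
MVK (chr12:109573544-109573793, plus strand): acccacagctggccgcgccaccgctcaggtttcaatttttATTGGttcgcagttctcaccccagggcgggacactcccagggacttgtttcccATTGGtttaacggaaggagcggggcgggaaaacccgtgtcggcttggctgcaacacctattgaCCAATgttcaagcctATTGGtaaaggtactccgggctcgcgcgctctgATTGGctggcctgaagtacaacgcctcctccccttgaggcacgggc
LSS (chr21:46228775-46229024, minus strand): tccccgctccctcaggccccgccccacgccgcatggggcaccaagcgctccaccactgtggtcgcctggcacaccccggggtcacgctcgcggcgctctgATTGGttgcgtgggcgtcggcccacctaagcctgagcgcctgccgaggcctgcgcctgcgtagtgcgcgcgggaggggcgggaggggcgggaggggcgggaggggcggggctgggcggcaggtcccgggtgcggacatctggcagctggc
DHCR7 (chr11:71448394-71448643, minus strand): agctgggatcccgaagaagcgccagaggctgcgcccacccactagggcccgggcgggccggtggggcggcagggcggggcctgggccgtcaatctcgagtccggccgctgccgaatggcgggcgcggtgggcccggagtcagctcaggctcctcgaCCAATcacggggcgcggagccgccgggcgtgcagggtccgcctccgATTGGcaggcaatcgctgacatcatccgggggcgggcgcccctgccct
SREBF2 (chr22:41832855-41833104, plus strand): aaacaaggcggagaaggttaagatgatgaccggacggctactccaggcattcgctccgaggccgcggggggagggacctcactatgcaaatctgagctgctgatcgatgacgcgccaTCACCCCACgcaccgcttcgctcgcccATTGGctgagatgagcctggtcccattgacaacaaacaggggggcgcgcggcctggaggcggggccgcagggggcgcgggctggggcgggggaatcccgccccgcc
ABCA1 (chr9:104928156-104928405, minus strand): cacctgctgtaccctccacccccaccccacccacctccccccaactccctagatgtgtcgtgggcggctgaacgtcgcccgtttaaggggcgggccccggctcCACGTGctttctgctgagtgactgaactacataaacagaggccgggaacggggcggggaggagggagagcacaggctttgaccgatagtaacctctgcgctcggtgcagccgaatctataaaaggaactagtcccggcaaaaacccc
MYLIP (chr6:16128836-16129085, plus strand): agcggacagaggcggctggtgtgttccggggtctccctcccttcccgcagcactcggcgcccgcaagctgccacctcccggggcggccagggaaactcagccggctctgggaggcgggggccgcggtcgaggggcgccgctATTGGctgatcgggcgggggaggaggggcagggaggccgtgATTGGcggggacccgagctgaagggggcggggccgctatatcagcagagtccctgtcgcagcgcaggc

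The CCAAT box, in either orientation, was present in 19 of the 28 promoters of the synthesis genes (67.9%), against 12155 of all 35116 promoters of the same length in the table (34.6%). By gene, 16 of 20 synthesis genes had one at some start, and the exceptions were PMVK, CYP51A1, LBR and FADS1. The promoter and gene counts of this paragraph include ACACA, with 3 listed starts, whose expression was not analysed. MVK and NSDHL each held 5 matches. The SP1 box GGGCGG was in 31 of the 36 promoters of the whole group (86.1%), against 45% of all promoters. The strict element TCACNCCAC was found only in SREBF2, where it begins 133 bases before the start; 1.13% of all promoters hold it. The E-box was in 6 of 36 promoters (16.7%), those of LSS, SC5D, SCAP, INSIG1 and ABCA1, against 7.26% of all. In the promoters of the synthesis genes alone, the E-box was in 3 of 28 (10.7%) and the SP1 box in 23 of 28 (82.1%). In the whole group, the CCAAT box was in 23 of 36 promoters (63.9%). A match describes these letters in these windows and is not a measured binding site.

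In untreated UTX-control cells, levels per exon length (RPKM) ran from 0.367 for ABCA1 to 211 for INSIG1 among the genes other than CYP51A1. FDFT1 at 184 RPKM, SCD at 181, HMGCS1 at 173 and FDPS at 152 were the highest of the enzymes. MYLIP at 1.89 RPKM and ABCA1 were the lowest, while ABCG1 stood at 9.55. ABCG1 lay above MVK, SC5D, HSD17B7 and NPC1 on this scale, and ABCA1 was counted from 95 to 602 reads per library.

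The summed level of the 22 synthesis genes with usable counts moved in opposite directions in the 2 shRNA lines. It was 4930 and 5640 CPM in TAL1-control and 7740 and 10200 CPM in TAL1-KD. It was 7690 and 7720 CPM in UTX-control and 4750 and 4640 CPM in UTX-KD. It was 8070 and 8090 CPM in J4-control and 4710 and 4750 CPM in J4-2uM. Within each pair of groups the libraries did not overlap. In such bulk samples, fewer cells of a kind and less RNA per cell cannot be told apart. The untreated TAL1 shRNA cells stood far below the other 2 control groups and near the level that the UTX-KD-labelled and GSK-J4-treated cells reached.

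**Figure D1:**
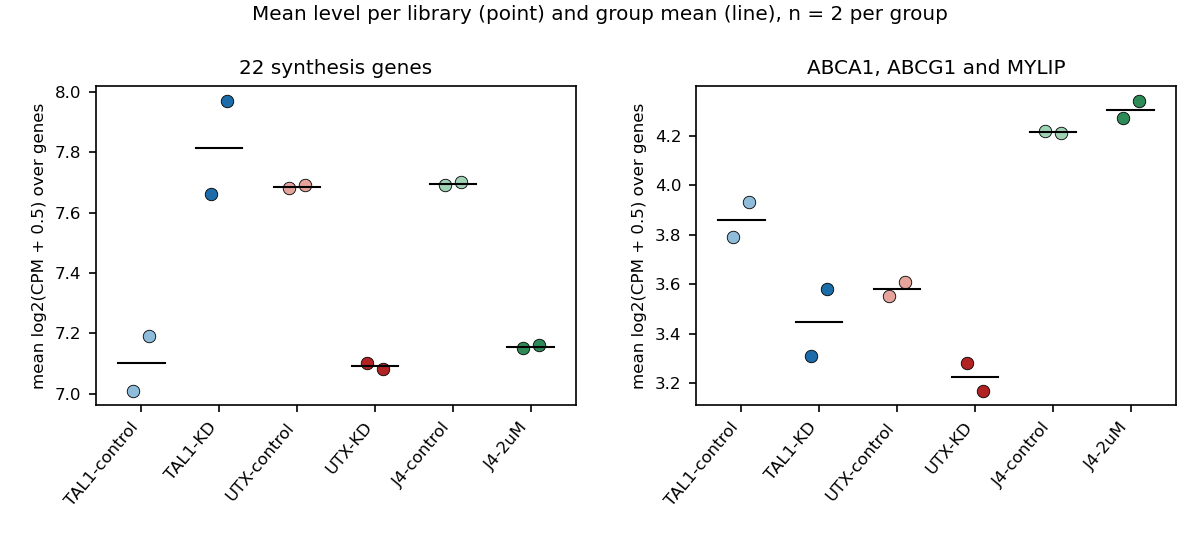
Mean log2(CPM + 0.5) over the 22 synthesis genes (left) and over ABCA1, ABCG1 and MYLIP (right) in each of the 12 libraries (points), with the group mean as a line; the axes do not start at 0. The synthesis genes of TAL1-control, at 7.01 and 7.19, sit with UTX-KD at 7.1 and 7.08 and J4-2uM at 7.15 and 7.16, and the other 3 groups lie at or above 7.66.

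That low starting level held for nearly every enzyme. In both TAL1-control libraries, 21 of the 23 matched synthesis genes were below both UTX-control libraries, where 37.6% of all 18460 genes were; FADS1 was above and CYP51A1 overlapped. Against J4-control, 20 of 23 were below (42.2% of all genes), LBR and FADS1 were above and CYP51A1 again overlapped. SREBF2 went the other way, at 754 and 809 CPM in TAL1-control against 512 and 525 in UTX-control and 544 and 535 in J4-control. The shRNA line and the library group cannot be told apart in these differences between controls, nor can the medium where J4-control is concerned, and the differences were not tested.

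With doxycycline in the TAL1 shRNA line, 23 of the 31 genes tested rose, 4 fell and 4 did not pass the test (edgeR quasi-likelihood test, Benjamini-Hochberg adjusted p under 0.05). Over all 16829 genes tested, 26.3% rose and 27.9% fell. The median log2 fold change of the 31 genes was 0.55, against −0.02 for all genes. Among the synthesis genes, 18 of 22 rose and 2, PMVK and LBR, fell.

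With doxycycline in the UTX shRNA line, 28 of 31 genes fell, SCAP and NPC1 rose, and TM7SF2 did not pass. Of all 16847 genes, 25.2% rose and 25.3% fell. The median of the 31 was −0.58, against 0.01 for all genes. Of the 22 synthesis genes, 21 fell.

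With GSK-J4, 22 of 32 genes fell, 5 rose and 5 did not pass. Of all 17907 genes, 37.9% rose and 36.9% fell. The median of the 32 was −0.37, against 0.01 for all genes. Among the synthesis genes, 16 of 23 fell, and MVK, SC5D and DHCR7 rose by small amounts.

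**Figure D2:**
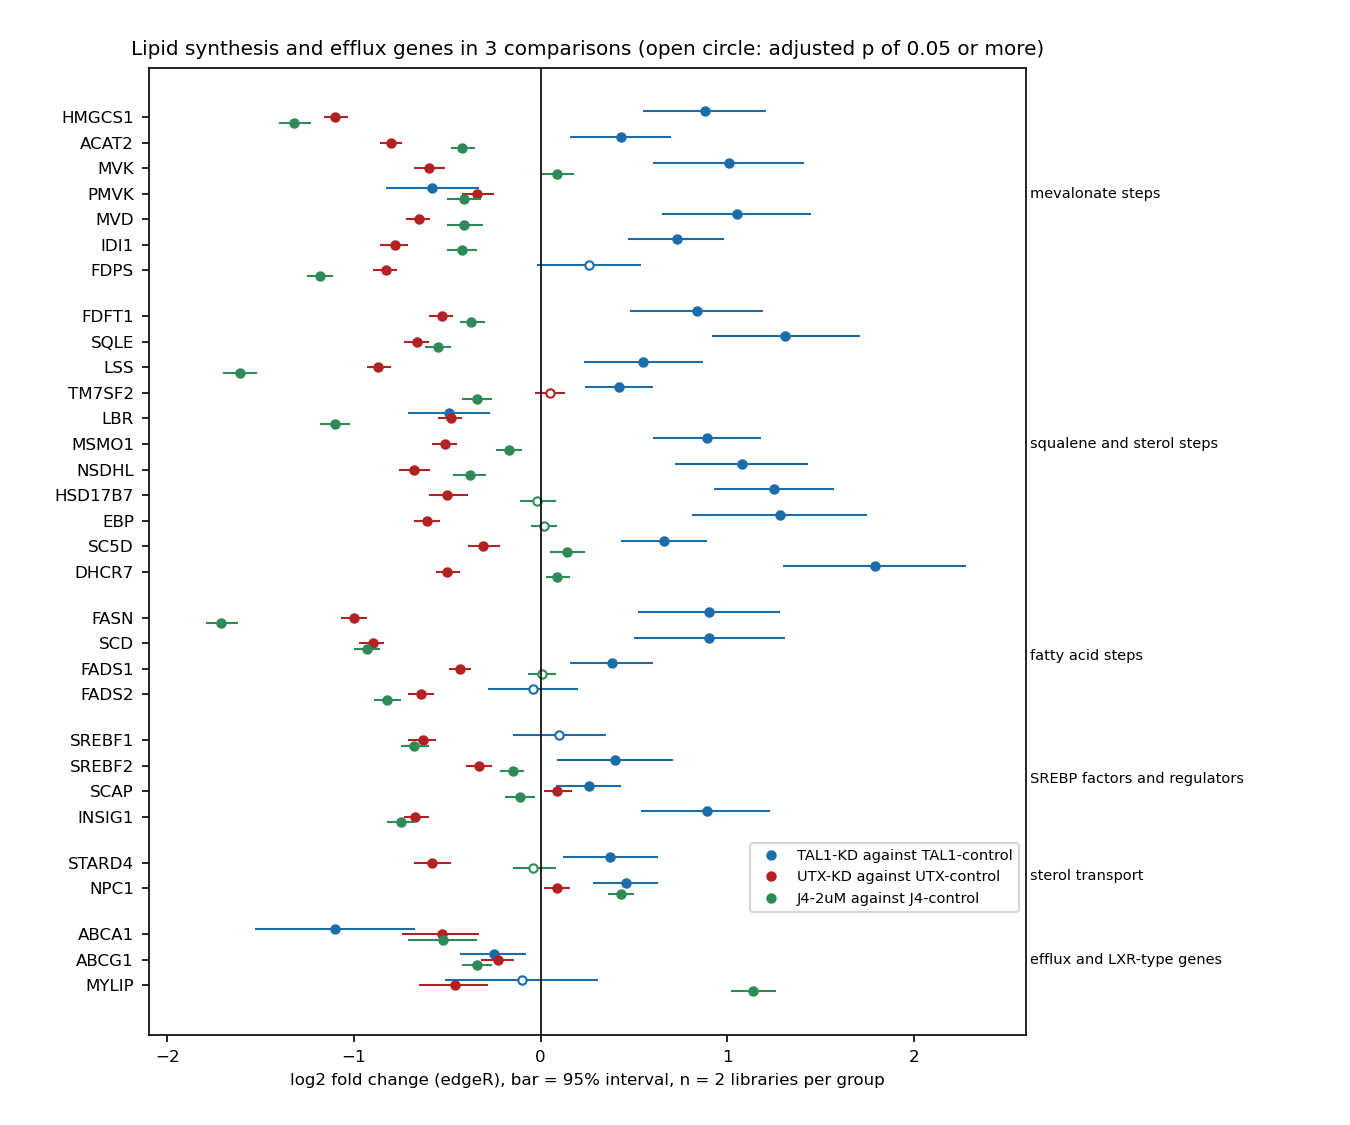
log2 fold change of each gene, by role, in the TAL1 shRNA (blue), UTX shRNA (red) and GSK-J4 (green) comparisons, with 95% intervals from edgeR and 2 libraries per group; open circles had an adjusted p of 0.05 or more. Blue points of most enzymes lie right of 0 and red points left of it, the blue intervals are the widest, and MYLIP with GSK-J4 stands alone at 1.14 among the efflux genes.

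The opposite direction in the 2 shRNA lines was tested as an interaction over their 8 libraries. The doxycycline effect was more positive in the TAL1 than in the UTX line for 25 of 31 genes (25% of all 17605 genes) and more negative for 1, ABCA1 (25.1% of all). A rise in the TAL1 line, a fall in the UTX line and a called difference came together in 20 of the genes and in 6.16% of the 16179 genes tested in both lines and for the difference. The median difference over the 31 genes was 1.26 on the log2 scale. No control library was shared between the comparisons.

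The first steps, from acetyl-CoA to farnesyl diphosphate, are the mevalonate route. HMGCS1, which condenses acetyl-CoA into HMG-CoA, was at 218 and 273 CPM in TAL1-control and 412 and 508 in TAL1-KD, at 824 and 804 in UTX-control and 381 and 392 in UTX-KD, and at 833 and 858 in J4-control and 327 and 348 in J4-2uM. It rose by 0.88 (SE 0.14, adjusted p = 0.00199) in the TAL1 line, where even the treated cells stayed below the other untreated cells, and fell by 1.10 (SE 0.03, adjusted p = 3.48e-14) in the UTX line and by 1.32 (SE 0.04, adjusted p = 6.23e-12) with GSK-J4. FDPS, which makes farnesyl diphosphate, was at 365 and 397 CPM in TAL1-control and 411 and 515 in TAL1-KD. This difference did not pass (0.26, adjusted p = 0.106) but did in 1 fit of all 12 libraries (0.28, adjusted p = 0.00854). Without TAL1-KD replicate 1, which left 1 treated library, FDPS changed by 0.42. It was 1.78-fold lower in UTX-KD and 2.26-fold lower with GSK-J4.

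ACAT2, MVD and IDI1, which supply acetoacetyl-CoA, decarboxylate mevalonate diphosphate and isomerise isopentenyl diphosphate, took the same 3 directions as HMGCS1. Their log2 changes were 0.43, 1.05 and 0.73 in the TAL1 line, −0.80, −0.65 and −0.78 in the UTX line, and −0.42, −0.41 and −0.42 with GSK-J4. TCP1, which lies on the opposite strand over 9.2% of the exon bases of ACAT2, fell by 1.15 with GSK-J4, and how the deposited counts treated strand was not given in the sources used here.

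The kinases of the route went separate ways in the TAL1 line, and both fell in the UTX line. MVK, mevalonate kinase, was at 35 and 37 CPM in TAL1-control and 58.4 and 88.8 in TAL1-KD, at 44.2 and 45.4 in UTX-control and 30.1 and 30.1 in UTX-KD, and at 41.9 and 43.1 in J4-control and 45.8 and 44.6 in J4-2uM. It was 2.01-fold higher in TAL1-KD, 1.51-fold lower in UTX-KD, and 1.07-fold higher with GSK-J4 (adjusted p = 0.0372), a rise that turned to −0.08 (adjusted p = 0.0628) with a GC and length trend removed and did not pass by the DESeq2 Wald test (0.08, adjusted p = 0.239). MMAB, the cobalamin enzyme gene on the opposite strand with 306 exon bases in common with MVK, did not pass in the TAL1 line (0.01), fell by 0.50 in the UTX line and fell by 1.10 with GSK-J4. PMVK, phosphomevalonate kinase, was at 21.3 and 21.4 CPM in TAL1-control and 15.4 and 13.6 in TAL1-KD. This was a fall of 0.58 (SE 0.11, adjusted p = 0.00342), where most genes of the route rose. It also fell in UTX-KD (−0.34) and with GSK-J4 (−0.41), and its change did not differ between the 2 shRNA lines past the threshold (difference −0.21, 95% interval −0.44 to 0.02). That difference passed in 1 fit of all 12 libraries (−0.24, adjusted p = 0.0365). It was −0.31 without TAL1-KD replicate 1, which left 1 treated library in the TAL1 line.

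Squalene synthesis and the ring-closing steps come next. FDFT1, squalene synthase, was 1.79-fold higher in TAL1-KD, 1.45-fold lower in UTX-KD and 1.29-fold lower with GSK-J4. SQLE, the squalene epoxidase that limits the sterol branch, was at 140 and 168 CPM in TAL1-control and 319 and 456 in TAL1-KD, at 276 and 279 in UTX-control and 179 and 177 in UTX-KD, and at 245 and 250 in J4-control and 170 and 166 in J4-2uM. The groups did not overlap in any of the 3 pairs, and the changes were 1.31 (SE 0.17, adjusted p = 0.000905), −0.66 (SE 0.03, adjusted p = 8.78e-12) and −0.55 (SE 0.03, adjusted p = 3.47e-09).

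LSS, lanosterol synthase, closes the first sterol ring system and was among the genes GSK-J4 lowered most. It was at 467 and 461 CPM in J4-control and 145 and 157 in J4-2uM, a 3.06-fold fall (−1.61, SE 0.04, adjusted p = 1.64e-12). In the UTX line it went from 427 and 437 CPM to 245 and 237, a 1.82-fold fall. In the TAL1 line it went from 233 and 266 CPM to 320 and 420, a 1.46-fold rise.

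The later enzymes trim and reduce lanosterol to cholesterol. DHCR7, the last reductase of one branch, was at 183 and 220 CPM in TAL1-control and 548 and 871 in TAL1-KD, the largest rise of the group at 3.46-fold (1.79, SE 0.21, adjusted p = 0.000659). In the UTX line it fell from 285 and 297 CPM to 213 and 205 (−0.50, SE 0.03, adjusted p = 1.37e-09). With GSK-J4 it was at 309 and 303 CPM against 289 and 286 in DMSO, a 1.07-fold rise that turned to −0.07 (adjusted p = 0.0567) once a GC and length trend was removed.

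EBP, the sterol isomerase, HSD17B7, a sterol ketoreductase, and SC5D, the desaturase before DHCR7, also rose in the TAL1 line and fell in the UTX line. They rose by 1.28, 1.25 and 0.66 in TAL1-KD and fell by 0.61, 0.50 and 0.31 in UTX-KD. With GSK-J4 EBP changed by 0.02 (95% interval −0.05 to 0.09) and HSD17B7 by −0.02 (−0.11 to 0.08), neither past the threshold, and SC5D rose by 0.14 (adjusted p = 0.0109). The pseudogene HSD17B7P2, at 2.36 to 9.17 CPM, rose by 1.31 with GSK-J4. MSMO1 and NSDHL, which remove the methyl groups of the lanosterol skeleton, rose by 0.89 and 1.08 in TAL1-KD, fell by 0.51 and 0.68 in UTX-KD and fell by 0.17 and 0.38 with GSK-J4.

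TM7SF2 and LBR both encode sterol C14 reductases, LBR also being the lamin B receptor of the nuclear envelope, and they did not move together. TM7SF2 was at 39.5 and 40.1 CPM in TAL1-control and 54.2 and 54.4 in TAL1-KD (1.34-fold higher), did not pass in the UTX line (0.05, 95% interval −0.03 to 0.13), and fell by 0.34 with GSK-J4. LBR was at 186 and 191 CPM in TAL1-control and 146 and 127 in TAL1-KD (−0.49, SE 0.09, adjusted p = 0.00401), and the fall was −0.19 (adjusted p = 0.0747) with a GC and length trend removed. It fell by 0.48 in UTX-KD and by 1.10 with GSK-J4, from 177 and 179 CPM to 80.6 and 84.5. Its change in the 2 shRNA lines differed by 0.02 (95% interval −0.19 to 0.24), and by 0.31 (adjusted p = 0.00424), past the threshold, with a GC and length trend removed.

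**Figure D3:**
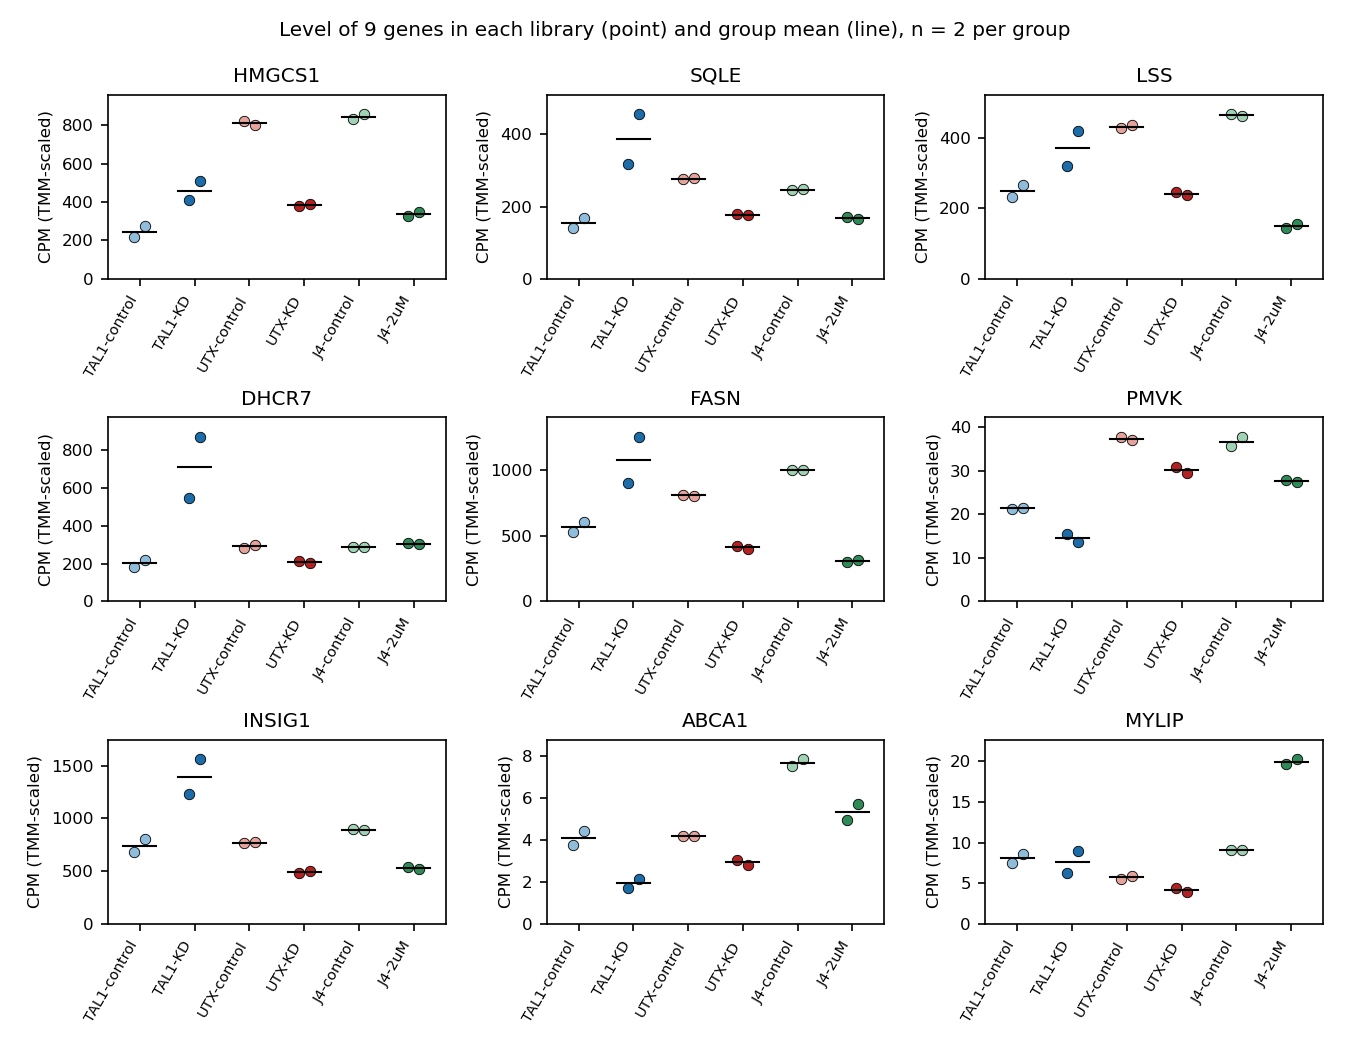
TMM-scaled CPM of 9 genes in each library (points) and the group mean (line); every axis starts at 0. DHCR7 is highest in TAL1-KD at 548 and 871 CPM and nearly level in the GSK-J4 pair, LSS and FASN are lowest in J4-2uM, and MYLIP is highest in J4-2uM at 19.6 and 20.2 CPM.

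Of the fatty acid genes, FASN and SCD took the same 3 directions as HMGCS1. FASN, fatty acid synthase, was at 527 and 604 CPM in TAL1-control and 897 and 1250 in TAL1-KD, at 812 and 804 in UTX-control and 422 and 400 in UTX-KD, and at 1000 and 999 in J4-control and 296 and 316 in J4-2uM. It was 1.87-fold higher in TAL1-KD (0.90, SE 0.16, adjusted p = 0.00325), 2-fold lower in UTX-KD (SE 0.03 on the log2 scale, adjusted p = 2.53e-13) and 3.26-fold lower with GSK-J4 (−1.71, SE 0.04, adjusted p = 6.54e-13). SCD, the stearoyl-CoA desaturase, was 1.87-fold higher in TAL1-KD, 1.87-fold lower in UTX-KD and 1.90-fold lower with GSK-J4.

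FADS1 and FADS2, neighbouring desaturases of long polyunsaturated fatty acids with 490 exon bases in common on opposite strands, parted. FADS1 rose by 0.38 in TAL1-KD and fell by 0.43 in UTX-KD, and with GSK-J4 it changed by 0.01 (95% interval −0.07 to 0.08). FADS2 did not pass in TAL1-KD (−0.04, 95% interval −0.28 to 0.20) and fell by 0.64 in UTX-KD and by 0.82 with GSK-J4, from 782 and 774 CPM to 444 and 432.

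Of the SREBP system, INSIG1, both a target and a brake of the switch, changed most. It was at 678 and 809 CPM in TAL1-control and 1230 and 1560 in TAL1-KD, at 765 and 777 in UTX-control and 488 and 498 in UTX-KD, and at 901 and 890 in J4-control and 539 and 524 in J4-2uM. The changes were 0.89 (SE 0.15, adjusted p = 0.00231), −0.67 (SE 0.03, adjusted p = 1.37e-11) and −0.75 (SE 0.03, adjusted p = 1.6e-10), and no pair of groups overlapped.

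The genes of the factors changed less. SREBF2, the sterol-side factor, rose by 0.40 in TAL1-KD (754 and 809 against 920 and 1180 CPM) and fell by 0.33 in UTX-KD and 0.15 with GSK-J4. SREBF1, the fatty-acid-side factor, was at 322 and 328 CPM in TAL1-control and 321 and 387 in TAL1-KD, which overlapped, and fell by 0.63 in UTX-KD and by 0.68 with GSK-J4. SCAP, the escort, changed by 0.26, 0.09 and −0.11 in the TAL1, UTX and GSK-J4 comparisons, each past the threshold. The rise of SCAP in UTX-KD became −0.02 (adjusted p = 0.567) with a GC and length trend removed, and that of NPC1 there became 0.04 (adjusted p = 0.284).

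Of the transport genes, STARD4, a soluble sterol carrier, rose by 0.37 in TAL1-KD, fell by 0.58 in UTX-KD and did not pass with GSK-J4 (−0.04, 95% interval −0.15 to 0.08). Its antisense neighbour STARD4-AS1 fell by 2.88 in TAL1-KD. NPC1, which releases cholesterol from lysosomes, rose by 0.46, 0.09 and 0.43 in the TAL1, UTX and GSK-J4 comparisons. Its small rise in the UTX line did not pass by the DESeq2 Wald test (0.08, adjusted p = 0.126).

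The efflux genes did not mirror the synthesis genes in every comparison. ABCA1 was at 3.77 and 4.42 CPM in TAL1-control and 1.73 and 2.15 in TAL1-KD, at 4.17 and 4.16 in UTX-control and 3.04 and 2.82 in UTX-KD, and at 7.51 and 7.82 in J4-control and 4.94 and 5.7 in J4-2uM. The treated libraries were the lower ones in all 3 pairs, without overlap. It fell by 1.10 (SE 0.18, adjusted p = 0.00234), 0.53 (SE 0.10, adjusted p = 0.000187) and 0.52 (SE 0.09, adjusted p = 9.18e-05).

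ABCG1 was at 75.9 and 78.4 CPM in TAL1-control and 64.1 and 67.6 in TAL1-KD, at 56.4 and 60.5 in UTX-control and 52 and 48.9 in UTX-KD, and at 83.6 and 79.3 in J4-control and 64.4 and 63.6 in J4-2uM. It too was lower in each treated pair, by 0.25 (adjusted p = 0.0249), 0.23 (adjusted p = 0.00017) and 0.34 (adjusted p = 1.65e-06). Its fall in the TAL1 line had an adjusted p of 0.0805 by the DESeq2 Wald test. Set beside the synthesis genes, both pumps fell where synthesis rose (the TAL1 line) and where it fell (the UTX line and GSK-J4).

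MYLIP departed from the pumps. It was at 7.53 and 8.55 CPM in TAL1-control and 6.32 and 8.9 in TAL1-KD, which overlapped (−0.10, SE 0.18, adjusted p = 0.646). It fell from 5.57 and 5.88 CPM to 4.45 and 3.95 in the UTX line (−0.46, SE 0.09, adjusted p = 0.000266). With GSK-J4 it rose from 9.07 and 9.04 CPM to 19.6 and 20.2, 2.21-fold (1.14, SE 0.06, adjusted p = 6.43e-10), while ABCA1 and ABCG1 fell in the same libraries. The GSK-J4 and UTX effects on MYLIP differed by 1.62 (SE 0.10, adjusted p = 1.03e-13).

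Over all 3 comparisons, 13 of the 31 genes tested in each took the sequence of a rise in TAL1-KD, a fall in UTX-KD and a fall with GSK-J4, which 4.18% of 16103 genes took. They were HMGCS1, ACAT2, MVD, IDI1, FDFT1, SQLE, LSS, MSMO1, NSDHL, FASN, SCD, SREBF2 and INSIG1. In 1 edgeR fit of all 12 libraries, the GSK-J4 falls of MSMO1 (−0.17, adjusted p = 0.1) and SREBF2 (−0.16, adjusted p = 0.126) did not pass. A fall in all 3 was taken by 4 genes, PMVK, LBR, ABCA1 and ABCG1, and by 6.98% of all genes.

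GSK-J4 and the UTX shRNA address the same enzyme family, and their effects on these genes were compared directly over 8 libraries. The GSK-J4 effect was the higher one for 18 of 32 genes (28.3% of all 18186 genes) and the lower one for 8 (30.2% of all). It was lower for LSS (difference −0.74, SE 0.05), FASN (−0.70, SE 0.05), LBR (−0.61, SE 0.05), FDPS (−0.34, SE 0.05) and HMGCS1 (−0.21, SE 0.05), and for TM7SF2, FADS2 and SCAP. It was higher for MVK (0.70, SE 0.06), EBP (0.64, SE 0.05), DHCR7 (0.60, SE 0.05), HSD17B7 (0.49, SE 0.07) and SC5D (0.46, SE 0.06), each past the threshold. For SCD the difference was −0.02 (95% interval −0.11 to 0.08) and for INSIG1 −0.07 (−0.17 to 0.03), neither past the threshold. In 1 edgeR fit of all 12 libraries, the differences of HMGCS1 (−0.25, adjusted p = 0.179) and FADS2 (−0.21, adjusted p = 0.0668) did not pass.

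**Figure D4:**
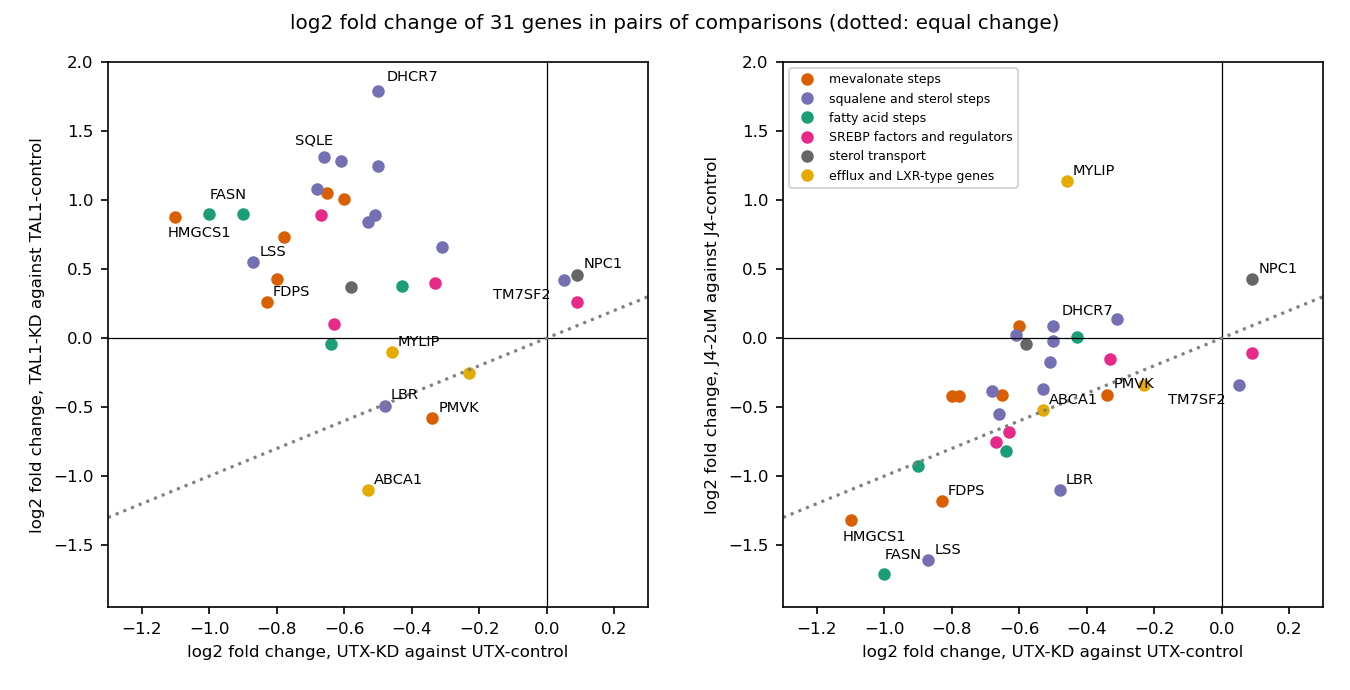
log2 fold change of the 31 genes tested in all 3 comparisons, UTX shRNA on the horizontal axes against TAL1 shRNA (left) and GSK-J4 (right), coloured by role, with equal change as a dotted line. Left, most enzymes lie above 0, with PMVK, LBR, FADS2, ABCA1, ABCG1 and MYLIP below. Right, FASN, LSS, HMGCS1, FDPS and LBR are among the genes below the dotted line, and MYLIP is far above it at 1.14.

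Between the TAL1 shRNA and GSK-J4 comparisons, the effect was higher in the TAL1 line for 26 of 32 genes (26.3% of all 18188 genes) and lower for 2, ABCA1 and MYLIP (27.6% of all). The largest differences were in FASN (2.64, SE 0.19), HMGCS1 (2.23, SE 0.17) and LSS (2.19, SE 0.16). Line, serum, selection drugs and kind of treatment cannot be told apart here either. CYP51A1 was counted among the 18 genes in which the GSK-J4 effect exceeded the UTX effect, from 19 reads or fewer per library, and its adjusted p was 0.108 by the DESeq2 Wald test.

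Several calls in the TAL1 line were lost when 1 untreated library was left out, while the changes kept their direction. Such a fit leaves 1 untreated library, and the spread then comes from the TAL1-KD pair alone. Without TAL1-control replicate 1, ACAT2 (log2 change 0.34), LSS (0.46), TM7SF2 (0.41), FADS1 (0.34), SREBF2 (0.35), SCAP (0.25), STARD4 (0.25) and ABCG1 (−0.27) did not pass. Without TAL1-control replicate 2, TM7SF2 (0.43), FADS1 (0.42), SREBF2 (0.45), SCAP (0.26) and ABCG1 (−0.23) did not pass. Leaving out a TAL1-KD library leaves 1 treated library. Without TAL1-KD replicate 1, the changes of FDPS and SREBF1 were 0.42 and 0.24, and without TAL1-KD replicate 2 that of MYLIP was −0.36. The call of ABCA1 as differing between the shRNA lines (−0.54, adjusted p = 0.0419) was lost without 6 of the 8 libraries taken singly, TAL1-control replicate 2, TAL1-KD replicate 1 and all 4 UTX libraries, with adjusted p from 0.0731 to 0.139. Against GSK-J4 it was lost without TAL1-control replicate 2, TAL1-KD replicate 1, either J4-control library or J4-2uM replicate 2, with adjusted p from 0.0627 to 0.133.

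The small rises with GSK-J4 and in the UTX line were less firm. MVK lost its rise with GSK-J4 without either J4-control library or J4-2uM replicate 1 (adjusted p from 0.128 to 0.371), SC5D without J4-control replicate 2 (0.164) or J4-2uM replicate 2 (0.0522), and DHCR7 without J4-control replicate 1 (0.172) or 2 (0.258). SCAP lost its fall there without J4-control replicate 1 (adjusted p = 0.134), and STARD4 passed as a fall without J4-2uM replicate 2 (−0.14). In the UTX line, SCAP lost its rise without UTX-control replicate 1 (0.27) or UTX-KD replicate 1 (0.411), and NPC1 without UTX-control replicate 1 (0.12), UTX-control replicate 2 (0.131) or UTX-KD replicate 1 (0.0699).

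The pathway's other genes were described from lists of related functions. The counts below stand beside the shares of all genes given above: 26.3% higher and 27.9% lower in TAL1-KD, 25.2% and 25.3% in UTX-KD, and 37.9% and 36.9% with GSK-J4. Of 10 genes that process SREBP, 4 rose and 1 fell in TAL1-KD, 1 rose and 2 fell in UTX-KD, and 4 rose and 5 fell with GSK-J4, where 37.9% of all genes rose and 36.9% fell. MBTPS2, the site-2 protease that frees SREBP from the membrane, fell by 1.13 in TAL1-KD, where SPRING1, a cofactor of SREBP processing, rose by 0.60. INSIG2 fell by 0.28 in UTX-KD and 0.61 with GSK-J4.

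Among 20 genes of fatty acid supply and elongation, 8 rose and 3 fell in TAL1-KD, 3 rose and 10 fell in UTX-KD, and 8 rose and 9 fell with GSK-J4, against 37.9% and 36.9% of all genes. ACLY, which makes cytosolic acetyl-CoA from citrate, followed the synthesis genes with 0.77, −0.50 and −0.87. FADS3 and LPIN1 rose in all 3, by 1.16, 0.49 and 0.87 and by 0.53, 0.34 and 0.63. ACSL4, which activates polyunsaturated fatty acids, fell by 0.40 in UTX-KD and 0.73 with GSK-J4.

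Of 15 genes of sterol storage and traffic, 8 rose and 1 fell in TAL1-KD, 9 rose and 2 fell in UTX-KD, and 8 rose and 7 fell with GSK-J4 (25.2% and 25.3% of all genes in UTX-KD, 37.9% and 36.9% with GSK-J4). TMEM97, the sigma-2 receptor that binds NPC1, took the synthesis sequence with 0.55, −0.65 and −1.16. VLDLR, a lipoprotein receptor, rose by 0.93 in UTX-KD and 0.74 with GSK-J4, where STARD5 rose by 1.23 and STARD3 by 0.99. NPC2, the lysosomal partner of NPC1, rose by 1.35, 0.26 and 0.55.

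On the LXR side, 10 of 13 genes were tested in each comparison: 3 rose and 2 fell in TAL1-KD, 4 rose and 4 fell in UTX-KD, and 4 rose and 3 fell with GSK-J4. The rises in TAL1-KD and both counts with GSK-J4 were near the shares of all genes (26.3%, 37.9% and 36.9%). The receptor genes parted: NR1H2, which encodes LXR beta, rose by 0.51, 0.52 and 0.62, and NR1H3, which encodes LXR alpha and lay at 1.18 to 6.03 CPM, fell by 1.61, 0.22 and 0.52.

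Of 14 genes of the isoprenoid branches that leave the route after farnesyl diphosphate, 4 rose and 5 fell in TAL1-KD, 4 rose and 5 fell in UTX-KD, and 5 rose and 7 fell with GSK-J4, against 37.9% and 36.9% of all genes with GSK-J4. PDSS1, which builds the ubiquinone tail, fell in all 3, by 0.41, 0.52 and 1.49. Of 16 genes of fatty acid oxidation, the opposite process, 4 rose and 7 fell in TAL1-KD, 3 rose and 6 fell in UTX-KD, and 1 rose and 12 fell with GSK-J4, where 36.9% of all genes fell. CPT2 and ACADM fell in all 3, by 0.85, 0.16 and 1.08 and by 1.28, 0.16 and 0.66.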

How the data were processed

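Poly(A) RNA of 12 Jurkat libraries was sequenced from a stranded mRNA kit, per the labels' protocols. The authors deposited, in 1 table per comparison, the raw counts of reads in each library by Ensembl gene identifier. The same tables hold the authors' DESeq2 columns: mean signal over libraries, log2 fold change with its error, a Wald score, and p-values. These deposited columns were not used for any value in the text. Reads had been aligned to hg19 with TopHat2 2.0.12 and counted with HTSeq 0.6.1p1, per the submitters' processing notes; the annotation, strand setting and treatment of reads with several matches were not given in the sources used here.

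Genes and lists were chosen with earlier results of these data known. All genes of a table were fitted with edgeR 4.0.16 in R 4.3.3 (filterByExpr, TMM, quasi-likelihood test), and p-values were adjusted by Benjamini-Hochberg over all genes tested, with a call at 0.05. Each comparison used its own 4 libraries, and the differences between comparisons the 8 of both. Named were all matched genes, the shRNA targets, overlapping genes and pseudogenes, and up to 4 called genes per wider list and comparison with the smallest adjusted p. RPKM used exon-union lengths of GENCODE release 29. The script was tested on simulated counts that gave all groups 1 common spread, unlike these libraries, where the TAL1-KD pair differed most. Alternatives were DESeq2 1.42.0, its size factors, other filters, 1 fit of all 12 libraries, GC and length trends, a replicate block, and leaving out each library. The expression of ACACA and the promoters of ACAT2, FDFT1, SQLE, FASN and ABCG1 were not analysed here.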

Additional observations from a re-analysis of the deposited data

Results flagged for a closer look

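For 20 genes, the response to the same doxycycline treatment was called in opposite directions in the 2 shRNA lines, and the difference itself passed the test over 8 libraries (edgeR interaction). Of all 16179 genes tested in the 3 fits, 6.16% rose in the TAL1 line and fell in the UTX line with a called difference. All 20 rose in TAL1-KD-labelled and fell in UTX-KD-labelled libraries. The differences, TAL1 line minus UTX line on the log2 scale, were 2.32 for DHCR7, 2.01 for HMGCS1, 2.01 for SQLE, 1.93 for FASN, 1.92 for EBP and 1.84 for SCD. They were 1.79 for NSDHL, 1.78 for HSD17B7, 1.74 for MVD, 1.64 for MVK, 1.59 for INSIG1 and 1.54 for IDI1. They were 1.44 for LSS, 1.43 for MSMO1, 1.40 for FDFT1, 1.26 for ACAT2 and 1.00 for SC5D. The smallest were 0.99 for STARD4, 0.84 for FADS1 and 0.76 for SREBF2. The mRNA of neither shRNA target changed past the threshold in the libraries labelled for its knockdown, and the TAL1 line started from the lower summed synthesis level (4930 and 5640 against 7690 and 7720 CPM); the part of either in the difference was not tested.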

How the results depend on the processing

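Counts of the named genes called were recomputed under each alternative. Leaving out 1 library at a time gave 16 to 25 higher and 3 to 5 lower in the TAL1 line, 0 to 2 higher and 28 lower in the UTX line, and 2 to 4 higher and 21 to 23 lower with GSK-J4; for the differences it gave 25 to 27 and 0 to 1 (TAL1 against UTX), 16 to 18 and 8 to 9 (GSK-J4 against UTX), and 25 to 27 and 1 to 3 (TAL1 against GSK-J4). The 2 rises in the UTX line became 1 with DESeq2 size factors and 0 with the DESeq2 Wald test, with 12 libraries in 1 fit, and with GC and length trends removed, without or with the replicate block. The 5 rises with GSK-J4 became 3 with the Wald test, 3 without a filter, 2 in the 12-library fit, and 3 with the trends removed, without or with the block. The 22 falls with GSK-J4 became 19 in the 12-library fit, where MSMO1, SREBF2 and SCAP did not pass. The 1 lower difference of TAL1 against UTX became 0 with the Wald test, 2 in the 12-library fit, and 0 with the trends removed, without or with the block. The 18 higher differences of GSK-J4 against UTX became 11 in the 12-library fit, and the 8 lower ones became 6. The 2 lower ones of TAL1 against GSK-J4 became 1 with the trends removed, without or with the block. With the trends removed, 3 small rises changed sign, without and with the block: SCAP in the UTX line (−0.02 in both), MVK (−0.08) and DHCR7 (−0.07) with GSK-J4. The cause was not tested.

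Same-numbered replicates correlated in their deviations at 0.188 in the TAL1 line, −0.162 in the UTX line and −0.0835 with GSK-J4; the labels tie them by number only. With the replicate number as a block, 24 rose and 4 fell in the TAL1 line, 2 and 28 in the UTX line, and 4 and 22 with GSK-J4, where MVK had an adjusted p of 0.0528; FDPS passed as a rise in the TAL1 line (0.25, adjusted p = 0.0264); the differences gave 25 and 1, 18 and 8, and 26 and 2. Crossing the numbers in the UTX line, chosen after seeing the data, also gave 2 and 28. With 2 libraries per group, small changes are the ones limited by depth and spread.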
